A study of Mus musculus with 12 samples.

Results

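Iron and heme handling was followed here through 10 genes chosen by name, for what they are known to do in the enterocyte, the absorptive cell of the gut lining. They are Cybrd1, Slc11a2 and Slc46a1 of uptake at the lumen, Fth1 and Ftl1 of storage, Slc40a1 and Heph of export to the blood, Tfrc of uptake from the blood, and Alas1 and Hmox1 of heme synthesis and heme breakdown. The deposited count tables list 30676 genes in all, and all 10 stand in both tables and passed the filter on low counts in all 3 comparisons. The RNA came from C57BL/6N mouse duodenum and was sequenced as 12 libraries, 3 for each of 4 groups. HFD PCN mice ate a high-fat diet and were injected into the peritoneum with 50 mg/kg of PCN, pregnenolone 16α-carbonitrile, which activates the mouse pregnane X receptor, once a day for 4 days. HFD Vehicle mice ate the same diet and were injected over the same days with vehicle, 30% DMSO in corn oil. HFD mice ate the diet without injection, and Chow mice ate regular chow without injection. All mice started their diet at 6 weeks of age and kept it for 18 weeks, and no genetic change is given for any group. Each library is called by its group and the number in its label.

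The duodenum is where most dietary iron is absorbed. Ferric iron is reduced at the brush border, carried into the cell as ferrous iron, and then stored in ferritin or passed to the blood through ferroportin, the exporter that the hormone hepcidin removes. The transcription factor HIF-2α drives the genes of the reductase, the importer and the exporter when iron or oxygen is low. Iron regulatory proteins act on the messages themselves: they bind a hairpin, the iron-responsive element, that blocks translation when it lies in a 5′ UTR and protects the message when it lies in the 3′ UTR of Tfrc. Read counts measure the message and not its translation.

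Total counts ranged from 4676718 to 20684369 per library. Levels are CPM, counts scaled to 1000000 per library after TMM scaling over the 12 libraries, which evens out differences in library make-up. Only means ± SD of genes named from the lists of related genes use TMM scaling over the 6 libraries of their comparison. Vil1, a structural gene of the enterocyte brush border, had 1160 to 2349 CPM. The extraction protocol in the labels names liver, but albumin (Alb), the main hepatocyte product, stood at 0.106 to 1.15 CPM, and the 9 hepatocyte markers present in both tables summed to 2.31 to 8.13 CPM. Red blood cell markers, whose cells hold most of the body's heme, summed to 3.31 to 24.0 CPM. HFD Vehicle 23 stood apart: 36.7% of its counts were mitochondrial, against 12.2% to 23.4% in the others, and its 14 enterocyte markers summed to 14556 CPM, against 22416 to 42778 CPM. HFD Vehicle 23 and HFD Vehicle 50 also held Hsp90aa1, a heat shock chaperone, at 1813 and 1480 CPM, against 63.5 to 427 CPM elsewhere. Nothing in the labels says that the libraries came from separate animals, so p-values measure only the spread between these samples. In RNA from whole tissue, fewer cells of a type and less RNA per cell cannot be told apart.

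The hairpins through which iron acts on these messages were read from the reference, because they are what the ferritin, ferroportin and transferrin receptor transcripts share beyond their role. The search asked, on the transcript's own strand of each UTR in GENCODE M21, for an unpaired C, a stem of 5 pairs with G and U allowed to pair, and the loop CAGTGN with its last base not G. It found 7 sites in 4 of the 10 genes, and at least 1 site in 119 of 21783 genes with a UTR (0.546%), 21 in a 5′ UTR and 98 in a 3′ UTR. Each site is shown in GRCm38 coordinates, 5′ to 3′ as transcribed with T for U, with the loop in capitals and 6 bases beyond the C and beyond the stem.
Slc40a1 5′ UTR, chr1:45925465-45925493, minus strand: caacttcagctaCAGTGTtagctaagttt
Fth1 5′ UTR, chr19:9982732-9982760, plus strand: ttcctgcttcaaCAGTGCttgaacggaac
Ftl1 5′ UTR, chr7:45459779-45459807, minus strand: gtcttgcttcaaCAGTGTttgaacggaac
Tfrc 3′ UTR, chr16:32631219-32631247, plus strand: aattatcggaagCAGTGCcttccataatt
Tfrc 3′ UTR, chr16:32631598-32631626, plus strand: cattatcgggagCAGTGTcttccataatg
Tfrc 3′ UTR, chr16:32631663-32631691, plus strand: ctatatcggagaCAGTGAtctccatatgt
Tfrc 3′ UTR, chr16:32631710-32631738, plus strand: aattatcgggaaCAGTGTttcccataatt
The ferritin pair, Fth1 and Ftl1, has the same 5 bases on each side of the loop. In the other 6 genes no site was kept, which says only that this pattern was not found in those annotated UTRs. A hairpin with a stem of another shape would be missed. Sites in the 10 genes were kept only with all 29 bases in the UTR and in a single exon, a limit not set for the 119 genes.

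Per length of transcript, the counted reads of ferritin heavy chain dwarfed those of the other genes. Fth1 averaged 2432 CPM per kilobase over the 12 libraries, and its lowest library, at 439 CPM per kilobase, lay above the highest value of any of the other 9 genes, 369.8 CPM per kilobase for Slc11a2 in HFD PCN 11. The Fth1 coordinates of the tables differ from those of GENCODE M21, so its length of 1494 bases is approximate. The next 5 genes in order were Ftl1 at 176, Slc46a1 at 135, Slc11a2 at 103.5, Slc40a1 at 91.9 and Heph at 89.1 CPM per kilobase, and neighbours in this order overlapped across libraries. Alas1 and Tfrc followed at 46.8 and 45.8 CPM per kilobase, with overlapping ranges. Cybrd1 averaged 5.22 CPM per kilobase, and its highest library, at 14.8, lay below the lowest of Tfrc, at 27.6. Hmox1 came last at 1.36 CPM per kilobase and overlapped Cybrd1. Ferritin pseudogenes could take or lend reads. The most abundant, Fth-ps2, had 5 to 43 counts, against at least 9290 counts of Fth1. Ftl1-ps1 had at most 17 counts, against at least 719 of Ftl1. Reads matching a gene and a copy alike may have been counted for neither, as the read filters are not given. These counts cannot show such a loss, so the order of the genes is that of counted reads.

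**Figure D1:**
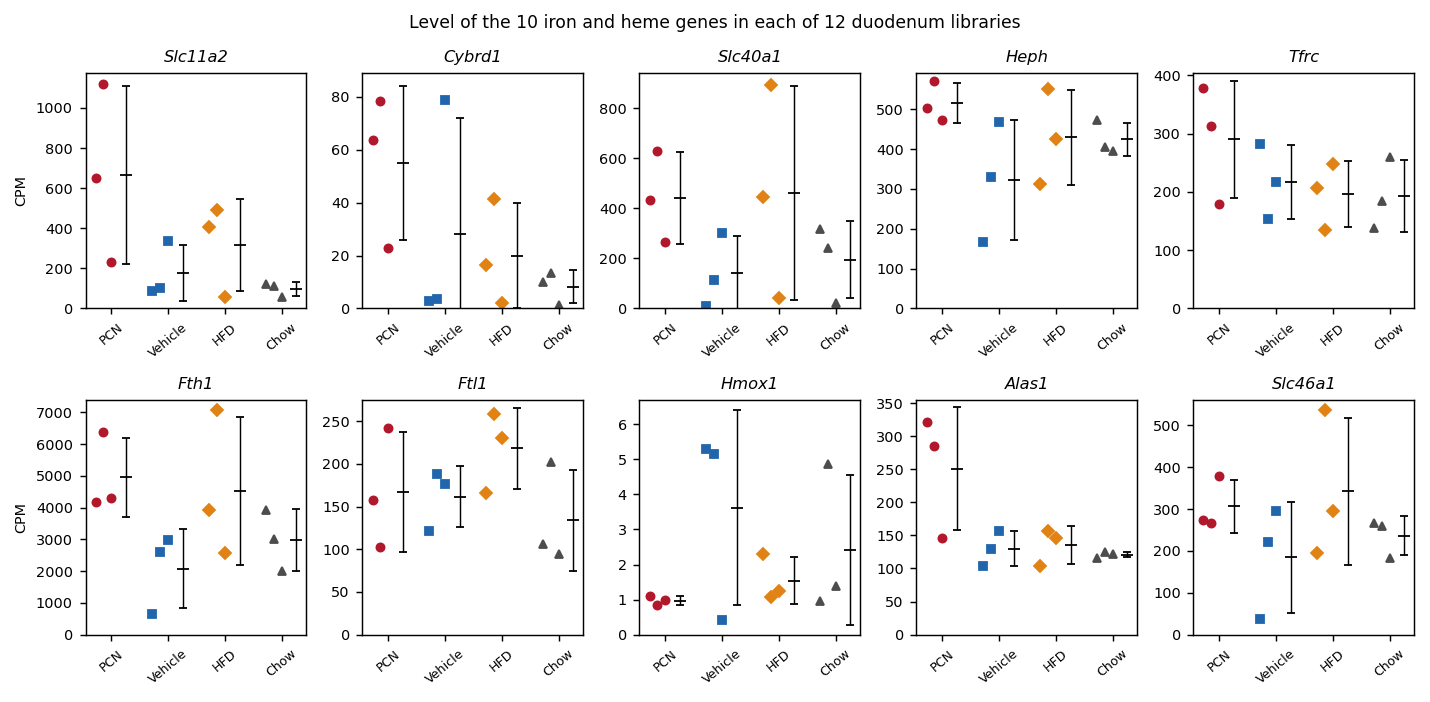
CPM of each of the 10 iron and heme genes in every library, in columns of 3 libraries for HFD PCN, HFD Vehicle, HFD and Chow, with linear axes that start at 0 and differ between panels; the bar right of each column is the mean ± SD of its 3 libraries, cut off at 0. The 3 libraries of a group lie far apart for Slc11a2, Cybrd1 and Slc40a1 (up to 34.0-fold within HFD Vehicle for Slc40a1), and close together for Alas1 in Chow, at 116 to 125 CPM.

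Cybrd1 (ENSMUSG00000027015, chromosome 2, 71117923 to 71142926, plus strand) encodes the brush border ferric reductase. It stood at 63.7, 78.6 and 22.7 CPM in HFD PCN 5, 11 and 27, against 2.68, 3.40 and 78.9 CPM in HFD Vehicle 23, 50 and 55. The uninjected mice had 16.4, 41.2 and 2.20 CPM in HFD 4, 30 and 38, against 9.93, 13.3 and 1.34 CPM in Chow 8, 17 and 19. HFD Vehicle 55 alone matched the highest PCN library, 29.4-fold above HFD Vehicle 23, while the group means differed by at most 6.72-fold. All groups overlapped their references.

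Slc11a2 (ENSMUSG00000023030, chromosome 15, 100387898 to 100425072, minus strand) encodes DMT1, the ferrous iron importer. It stood at 648.5, 1119 and 229 CPM in HFD PCN 5, 11 and 27, against 86.0, 101 and 335 CPM in HFD Vehicle 23, 50 and 55. The HFD libraries 4, 30 and 38 had 404, 489.5 and 56.8 CPM, against 121, 111.5 and 55.2 CPM in Chow 8, 17 and 19. PCN libraries 5 and 11 held the highest levels of the study and PCN 27 lay below HFD Vehicle 55. On the diet without injection, HFD 4 and HFD 30 lay above every Chow library and HFD 38 lay beside the lowest one.

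Slc46a1 (ENSMUSG00000020829, chromosome 11, 78465697 to 78472059, plus strand) encodes a proton-coupled transporter of folate that also carries heme. Its levels were 273, 267 and 380 CPM in HFD PCN 5, 11 and 27, against 38.1, 221 and 296 CPM in HFD Vehicle 23, 50 and 55. They were 196, 537 and 294.5 CPM in HFD 4, 30 and 38, against 266, 260.4 and 184 CPM in Chow 8, 17 and 19. Apart from HFD Vehicle 23 and HFD 30 the libraries lay between 184 and 380 CPM.

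Slc40a1 (ENSMUSG00000025993, chromosome 1, 45908068 to 45926523, minus strand) encodes ferroportin, the iron exporter of the basal membrane. It had 434, 630 and 264 CPM in HFD PCN 5, 11 and 27, against 8.90, 112 and 303 CPM in HFD Vehicle 23, 50 and 55. It had 445, 896 and 39.8 CPM in HFD 4, 30 and 38, against 319.5, 241.5 and 21.8 CPM in Chow 8, 17 and 19. Its range over the 12 libraries was 101-fold, the widest of the 10 genes, while the group means differed by at most 3.26-fold. One library or a pair in each of HFD Vehicle, HFD and Chow was low, and none in HFD PCN.

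Heph (ENSMUSG00000031209, chromosome X, 96455359 to 96574485, plus strand) encodes hephaestin, the copper oxidase that works with ferroportin. Its levels were 502, 570.3 and 472 CPM in HFD PCN 5, 11 and 27, against 166, 331 and 467 CPM in HFD Vehicle 23, 50 and 55. They were 313, 550 and 424 CPM in HFD 4, 30 and 38, against 472, 405 and 396 CPM in Chow 8, 17 and 19. The lowest PCN library lay just above the highest Vehicle library, and HFD and Chow overlapped.

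Fth1 (ENSMUSG00000024661, chromosome 19, 9982703 to 9985092, plus strand), the ferritin heavy chain that oxidises iron for storage, had 4167, 6388 and 4317 CPM in HFD PCN 5, 11 and 27, against 656, 2591 and 2978 CPM in HFD Vehicle 23, 50 and 55. It had 3933, 7080 and 2555 CPM in HFD 4, 30 and 38, against 3931, 3009 and 1997 CPM in Chow 8, 17 and 19. The PCN and Vehicle libraries did not overlap, yet every PCN library lay within the range of the uninjected HFD libraries. Ftl1 (ENSMUSG00000050708, chromosome 7, 45457944 to 45459884, minus strand), the light chain of the same shell, had 158, 102 and 242 CPM in HFD PCN 5, 11 and 27, against 121, 188 and 176 CPM in HFD Vehicle 23, 50 and 55. It had 166, 258.5 and 231 CPM in HFD 4, 30 and 38, against 106, 202 and 94.1 CPM in Chow 8, 17 and 19. The chains did not order the libraries alike: PCN 11 was the highest PCN library for Fth1 and the lowest for Ftl1.

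Tfrc (ENSMUSG00000022797, chromosome 16, 32608920 to 32632794, plus strand), the transferrin receptor, had 377, 312 and 180 CPM in HFD PCN 5, 11 and 27, against 281, 154 and 217 CPM in HFD Vehicle 23, 50 and 55. It had 206, 135 and 247 CPM in HFD 4, 30 and 38, against 137, 183.5 and 259 CPM in Chow 8, 17 and 19. In HFD and Chow its order was the opposite of that of Slc40a1, with HFD 38 and Chow 19 highest. Across the 12 libraries Tfrc spanned 2.80-fold, and its group means lay between 193 and 290 CPM. The 8 crypt markers, of cells that divide, summed to 581 to 866 CPM in HFD PCN, 422 to 784 CPM in HFD Vehicle, between 252.5 and 605 CPM in HFD and 450 to 709 CPM in Chow.

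Alas1 (ENSMUSG00000032786, chromosome 9, 106233455 to 106248654, minus strand) encodes the first and rate-limiting enzyme of heme synthesis outside red cells, and in liver it is known to be induced together with cytochrome P450 enzymes, which carry heme. It had 321, 286 and 145 CPM in HFD PCN 5, 11 and 27, against 103, 130 and 156 CPM in HFD Vehicle 23, 50 and 55. It had 103.5, 157 and 146 CPM in HFD 4, 30 and 38, against 116, 125 and 122 CPM in Chow 8, 17 and 19. PCN 5 and PCN 11 lay above the other 10 libraries, which spanned only 103 to 157 CPM, and PCN 27 lay among them. The same order stood in Cyp3a11, a P450 gene and classical target of the pregnane X receptor, at 11909.5, 9272 and 4655 CPM in HFD PCN 5, 11 and 27, against 164 to 1154 CPM in HFD Vehicle. Cyp2c55, another P450 gene, had 614, 430 and 99.0 CPM in HFD PCN 5, 11 and 27, against 2.97 to 7.73 CPM in HFD Vehicle. Both P450 genes were chosen after their values were seen. Tfrc held the same order of PCN libraries, and how many genes share that order was not counted. Without injection, Cyp3a11 had 407 to 730 CPM in HFD, against 1532 to 2358 CPM in Chow. Cyp2c55 had 6.70 to 7.18 CPM in HFD, against 55.1 to 70.6 CPM in Chow, while Alas1 in HFD and Chow overlapped.

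Hmox1 (ENSMUSG00000005413, chromosome 8, 75093621 to 75100589, plus strand) encodes heme oxygenase 1, the inducible enzyme of heme breakdown, which heat shock, heme and oxidative stress are known to raise. It rested on 2 to 97 counts per library. Its levels were 1.10, 0.845 and 0.977 CPM in HFD PCN 5, 11 and 27, against 5.30, 5.15 and 0.407 CPM in HFD Vehicle 23, 50 and 55. They were 2.31, 1.08 and 1.24 CPM in HFD 4, 30 and 38, against 0.969, 4.87 and 1.40 CPM in Chow 8, 17 and 19. The 2 counts in HFD Vehicle 55 give an exact Poisson 95% interval of 0.0493 to 1.47 CPM, for counting error only. The 3 libraries with the most Hmox1, HFD Vehicle 23, HFD Vehicle 50 and Chow 17, were also the 3 with the most Hsp90aa1, at 1813, 1480 and 427 CPM, and no other library passed 224 CPM. The part of heat shock genes in the level of Hmox1 was not tested. The 14 macrophage markers, from cells that recycle heme, summed to 73.0 to 134 CPM in HFD PCN, 81.1 to 172 CPM in HFD Vehicle, between 158 and 197 CPM in HFD and 105 to 177.5 CPM in Chow.

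The PCN comparison sets PCN injection against vehicle injection in the duodenum of mice on the high-fat diet. None of the 10 genes passed edgeR's quasi-likelihood test, with calls made at a p under 0.05 after Benjamini-Hochberg adjustment, and DESeq2 called none either. Over all genes, 10 of 16110 were called (0.0621%), and DESeq2 called 339 of the genes listed. Of the 10 genes 9 had a positive log2 fold change, with a median of 0.84 beside -0.012 for all genes tested. At an unadjusted p under 0.05 there were 4 of the 10, Hmox1, Alas1, Slc11a2 and Fth1, against 17.9% of all genes. The groups did not overlap for Fth1 and Heph, both higher in HFD PCN, against 19.3% of all genes in either direction, so that share is near the background.

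In that comparison Slc11a2 had a log2 fold change of 1.95 (SE 0.67, adjusted p = 0.242), from 665 ± 445 CPM in HFD PCN and 174 ± 140 CPM in HFD Vehicle (SD, n = 3 each). Slc40a1 had 1.67 with an SE of 1.07 (adjusted p = 0.419), from 443 ± 183 CPM in HFD PCN and 141 ± 149 CPM in HFD Vehicle. Cybrd1 had 1.05 with an SE of 1.33, from 55.0 ± 29.0 CPM in HFD PCN and 28.3 ± 43.8 CPM in HFD Vehicle. Alas1 had the smallest error among the 4 with an unadjusted p under 0.05, a log2 fold change of 0.95 (SE 0.31, adjusted p = 0.240), from 250.5 ± 92.8 CPM in HFD PCN and 130 ± 26.5 CPM in HFD Vehicle. Hmox1 had -1.98 with an SE of 0.65 (adjusted p = 0.240), from 0.973 ± 0.126 CPM in HFD PCN and 3.62 ± 2.78 CPM in HFD Vehicle. Fth1 had 1.26 with an SE of 0.52, Heph 0.68 with an SE of 0.35, Slc46a1 0.73 with an SE of 0.59, Tfrc 0.41 with an SE of 0.33 and Ftl1 0.044 with an SE of 0.32. The authors' deposited table called none of the 10 either. It gave its lowest adjusted p, 0.161, to Alas1, at a log2 fold change of 0.86, and called 216 genes.

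**Figure D2:**
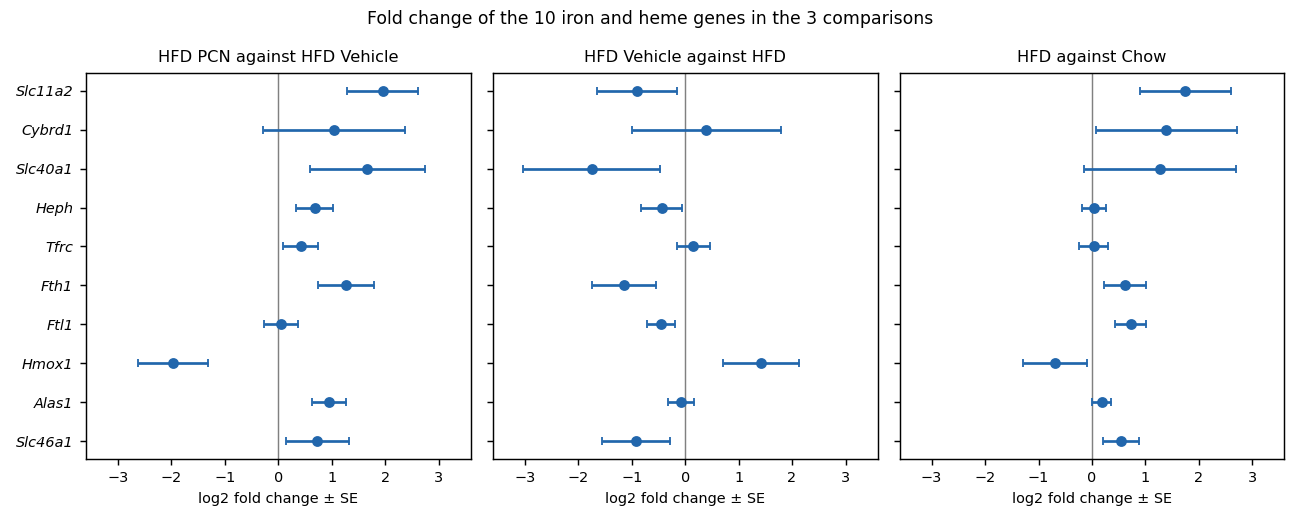
Log2 fold change ± SE from edgeR of the 10 genes in HFD PCN against HFD Vehicle, HFD Vehicle against HFD and HFD against Chow, 3 libraries in each group. None passed the threshold; 9 of 10 points lie right of 0 in the first panel and in the third, and 3 of 10 in the second, whose HFD Vehicle and HFD libraries are also in its neighbours.

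These values depended on which Vehicle libraries were compared with. HFD Vehicle 23 and 50, the pair high in Hsp90aa1, held low Cybrd1, Slc11a2 and Slc40a1 and high Hmox1, while HFD Vehicle 55 held the reverse. The 8 smooth muscle markers summed to 928 to 1025 CPM in HFD PCN, against 1678, 1729 and 975.4 CPM in HFD Vehicle 23, 50 and 55. The 11 pancreatic acinar markers summed to 2.47 to 21.03 CPM in HFD PCN, against 82.7, 31.5 and 11.8 CPM in HFD Vehicle 23, 50 and 55. The part of these cells in the result was not tested. Without HFD Vehicle 55 5 of the 10 genes were called by edgeR, against 22% of all genes, 3697 of 16789. These were Cybrd1 (log2 fold change 4.17, adjusted p = 0.00936), Slc11a2 (2.83, adjusted p = 0.0259), Heph (1.05, adjusted p = 0.0402), Alas1 (1.10, adjusted p = 0.0391) and Hmox1 (-2.41, adjusted p = 0.00137). Over the 14 alternatives the adjusted p of each of the 5 ran up to 0.997. Against HFD Vehicle 55 alone, which is then assumed to vary like the PCN libraries, none was called: Cybrd1 stood at -0.51 and Hmox1 at 1.25, with the sign turned, and Slc11a2 at 0.99. Against the uninjected HFD libraries, which lie in the other table, none was called, Slc40a1 stood at -0.063, Slc46a1 at -0.17 and Ftl1 at -0.39, and Fth1 at 0.13 with an SE of 0.39. Alas1 kept a positive value with each of these references, 0.68 to 1.10, with 0.88 and an SE of 0.28 against uninjected HFD (adjusted p = 0.179). With no filter on low counts Alas1 (adjusted p = 0.0263) and Hmox1 (adjusted p = 0.0253) were called, against 2.93% of the genes listed.

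**Figure D3:**
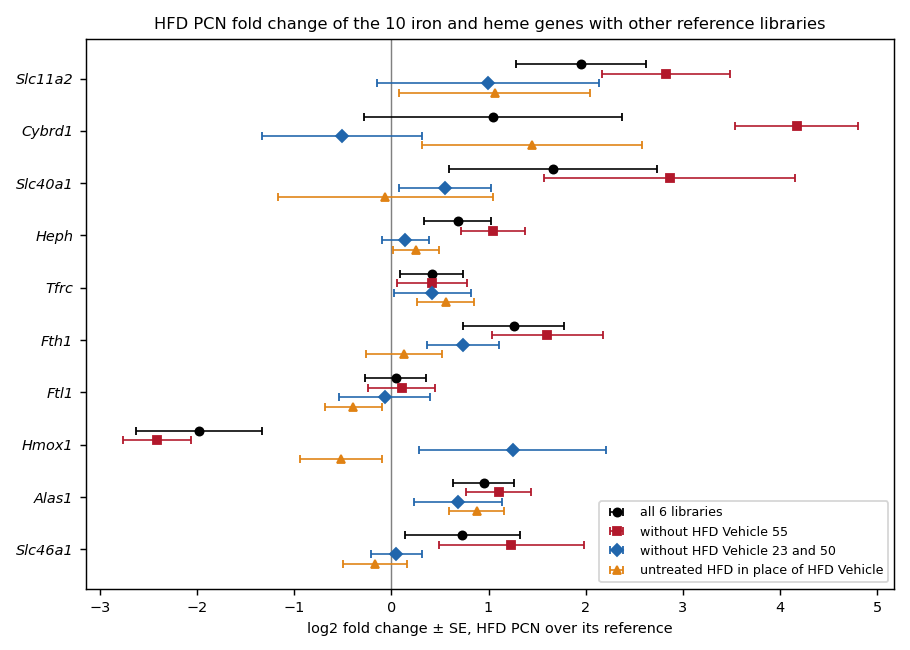
Log2 fold change ± SE of the 10 genes in the 3 HFD PCN libraries over 4 choices of reference, all 3 HFD Vehicle libraries (black circles), HFD Vehicle 23 and 50 only (red squares), HFD Vehicle 55 only (blue diamonds) and the 3 uninjected HFD libraries (orange triangles). Cybrd1 spans -0.51 to 4.17 and Hmox1 -2.41 to 1.25, while Alas1 stays between 0.68 and 1.10 and Tfrc between 0.41 and 0.56.

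The diet comparison asks what 18 weeks of high-fat feeding did. None of the 10 genes was called by edgeR or by DESeq2, while over all genes edgeR called 10 of 15278 (0.0655%) and DESeq2 called 134. Of the 10 genes 9 had a positive log2 fold change, with a median of 0.59 beside 0.0046 for all genes tested. Ftl1 was the only one with an unadjusted p under 0.05, which 10.3% of all genes had. It averaged 218.5 ± 47.4 CPM in HFD and 134 ± 59.3 CPM in Chow (SD, n = 3 each), a log2 fold change of 0.72 (SE 0.29, adjusted p = 0.457). With no filter on low counts Ftl1 was called (adjusted p = 0.0354), as were 1.25% of the genes listed, and over its 12 alternatives the adjusted p ranged up to 0.991. No gene of the 10 had groups that did not overlap, against 16.3% of all genes. The pancreatic acinar markers summed to 4.46 to 24.7 CPM in HFD, against 49.4 to 132 CPM in Chow, and the smooth muscle markers to 832 to 2242 CPM in HFD, against 1062 to 1277 CPM in Chow. Their part in the result was not tested.

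Slc11a2 had the largest fold change of the 10 on the diet, 1.75 with an SE of 0.85 (adjusted p = 0.533), from 317 ± 229 CPM in HFD and 95.8 ± 35.4 CPM in Chow. Without HFD 38 it stood at 2.25 with an SE of 0.30 and was called by edgeR (adjusted p = 0.0165), as were 0.421% of all genes. Over its 12 alternatives the adjusted p ran up to 0.991, the value without Chow 19. Cybrd1 had 1.39 with an SE of 1.32 and Slc40a1 had 1.27 with an SE of 1.43. Fth1 had 0.62 with an SE of 0.40, Slc46a1 0.55 with an SE of 0.34, Alas1 0.18 with an SE of 0.18, Heph 0.032 with an SE of 0.22, Tfrc 0.030 with an SE of 0.27 and Hmox1 -0.70 with an SE of 0.60. Without Chow 17, the Chow library with the most Hsp90aa1, Hmox1 stood at 0.22. The authors' deposited table called none of the 10, with its lowest adjusted p, 0.69, at Ftl1, and called 106 genes.

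Injected and uninjected mice on the same diet were compared across the deposited tables, on raw counts of genes in both. These groups lie in different tables, so any difference in how the tables were made cannot be told apart from the injection, and they share their libraries with the comparisons above. None of the 10 genes was called, none had an unadjusted p under 0.05, and edgeR called 0 of 16255 genes, with 953 at an unadjusted p under 0.05 (5.86%), while DESeq2 called 32. Of the 10 genes 3 had a positive log2 fold change, with a median of -0.44 beside 0.0076 for all genes tested. Slc40a1 averaged 141 ± 149 CPM in HFD Vehicle, against 460 ± 428 CPM in HFD, a log2 fold change of -1.75 (SE 1.28). Fth1 averaged 2075 ± 1244 CPM in HFD Vehicle, against 4523 ± 2319 CPM in HFD, -1.15 with an SE of 0.60 (adjusted p = 0.803). Hmox1 averaged 3.62 ± 2.78 CPM in HFD Vehicle, against 1.54 ± 0.668 CPM in HFD, 1.42 with an SE of 0.70 (adjusted p = 0.803). The remaining genes lay between -0.92 for Slc46a1 and 0.40 for Cybrd1. No gene of the 10 had groups that did not overlap, against 9.92% of all genes.

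The spread inside groups followed one pattern across several of these genes. Chow 19, HFD 38, HFD Vehicle 23 and HFD Vehicle 50 were the 4 lowest libraries for Cybrd1, Slc11a2, Slc40a1 and Fth1 alike, whatever their group. They were also the 4 lowest for Pdx1, a homeobox factor of the pancreas and proximal duodenum on the list of proximal markers, which was singled out after its values were seen. Pdx1 stood at 15.1, 18.1, 10.1 and 27.9 CPM in those libraries and at 31.2 to 68.7 CPM in the other 8. These 4 lowest libraries were shared with Pdx1 by 4 of the 10 genes. Over all genes they were shared by 54 of 16592 (0.325%), a count that leaves out Pdx1 and includes the 10. The 16592 genes passed edgeR's low-count filter over 12 libraries with TMM-scaled library sizes. Slc11a2 and Slc40a1 ordered the 3 libraries as Pdx1 did in each of the 4 groups, which 36 of those 16592 genes did (0.217%). Cybrd1, Fth1 and Heph kept that order in 3 of the 4 groups, and Tfrc, Ftl1 and Hmox1 in none. Pdx1 was picked with these values known, so the shares follow in part from that choice and cannot serve as support. They describe the 12 libraries and carry no test. HFD 4 and Chow 8 held similar Pdx1, 43.9 and 47.6 CPM, and Slc11a2 at 404 CPM in HFD 4 and 121 CPM in Chow 8. HFD 38 and Chow 19 also held similar Pdx1, 18.1 and 15.1 CPM, and Slc11a2 at 56.8 CPM in HFD 38 and 55.2 CPM in Chow 19.

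**Figure D4:**
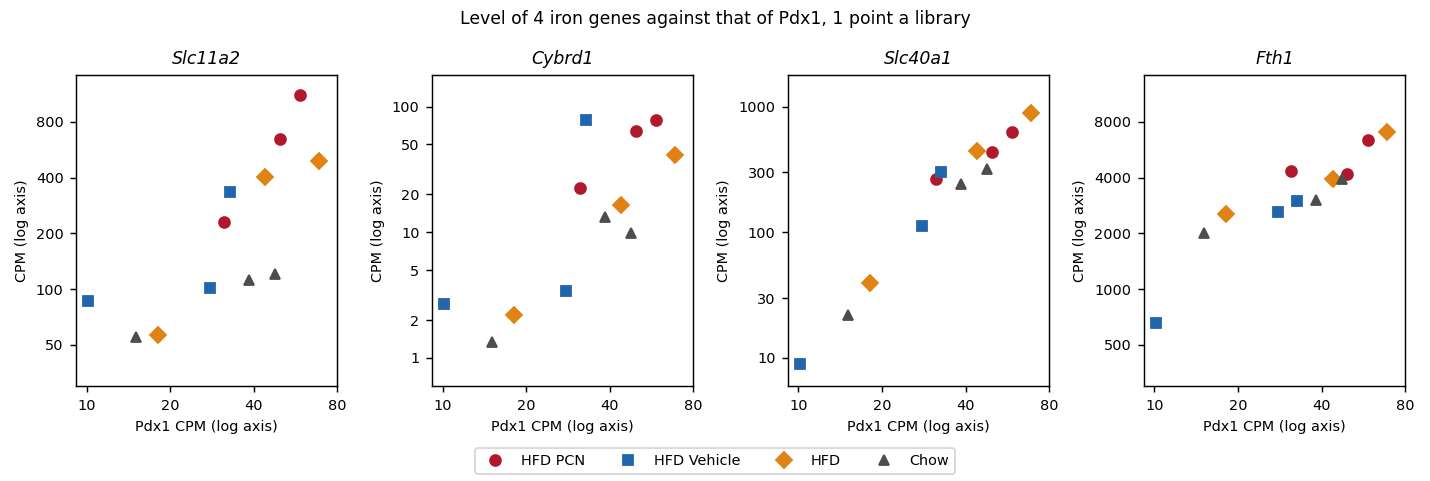
CPM of Slc11a2, Cybrd1, Slc40a1 and Fth1 (log axes) against CPM of Pdx1 (log axis), 1 point for each of the 12 libraries, coloured by group. The 4 libraries with Pdx1 under 30 CPM are the lowest for all 4 genes, and among the rest the Chow libraries 8 and 17 lie lowest for Slc11a2, at 121 and 111.5 CPM.

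Not every marker of the proximal gut moved with Pdx1. The 8 proximal markers summed to 3608 to 3671 CPM in HFD PCN, 1103 to 2662 CPM in HFD Vehicle, between 1415 and 2584 CPM in HFD and 2295 to 2479 CPM in Chow, and HFD 38 and Chow 19 were the highest of their groups in that sum. Slc30a10, a manganese exporter on that list, had the same 4 lowest libraries, while Gata4 and Onecut2 did not. Onecut3, Hoxb6, Lct and Gsta1, also on the list, are not given singly here, and they make up most of that sum. In HFD 38, where the sum was 2584 CPM, Pdx1 had 18.1, Slc30a10 58.1, Gata4 119 and Onecut2 234 CPM. Lct is also 1 of the 14 enterocyte markers, so the sum does not measure position along the gut alone. The 6 distal markers in both tables summed to 77.8 to 99.3 CPM in HFD PCN, 60.9 to 93.7 CPM in HFD Vehicle, 41.8 to 75.9 CPM in HFD and 73.6 to 127 CPM in Chow. With the log2 CPM of Pdx1 as a term in a fit of all 12 libraries, an alternative added after seeing the data, Slc40a1 stood at -0.053 in HFD PCN against HFD Vehicle, 0.23 in HFD Vehicle against HFD and 0.29 in HFD against Chow, with SEs of 0.34, 0.33 and 0.32. Cybrd1 stood at -0.74, 2.28 and 0.25 in those comparisons and Slc11a2 at 0.57, 0.42 and 0.97, and none of the 10 genes was called. Alas1 had 0.76 with an SE of 0.30 in HFD PCN against HFD Vehicle (adjusted p = 0.435). Pdx1 was picked with the levels of these genes known, so the values of this fit follow in part from that choice. They cannot serve as support. Whether the libraries differ in the stretch of duodenum sampled was not tested.

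Beside the 10 genes, 8 lists of related genes were counted, with the genes named by p and not by role. The heme synthesis list holds Alas1, that of heme transport and breakdown holds Hmox1 and Slc46a1, and that of NRF2 holds Hmox1, Fth1 and Ftl1, so their counts and medians include those genes. No gene of any list was called in any comparison. In HFD PCN against HFD Vehicle 17.9% of all genes were at an unadjusted p under 0.05. There were 8 of 10 heat shock genes, 8 of 16 of NRF2 and 6 of 16 of the hypoxia-inducible factor list. Beside them were 5 of 15 of heme synthesis and 2 to 4 of each other list. There were 7 of 8 heat shock genes in HFD Vehicle against HFD, where 5.86% of all genes were, and 0 to 2 of each other list. In HFD against Chow, where 10.3% of all genes were, there were 7 of 16 of the hypoxia-inducible factor list. Each other list had 0 to 3. The heat shock genes named below for HFD PCN against HFD Vehicle and HFD Vehicle against HFD were high mainly in HFD Vehicle 23 and 50. In heme synthesis, 15 of 17 listed genes were tested in each comparison, and the median log2 fold change was -0.12 in HFD PCN against HFD Vehicle. Its members with the smallest p there were Cpox, the coproporphyrinogen oxidase, at 110 ± 45.2 CPM in HFD PCN and 42.1 ± 5.28 CPM in HFD Vehicle (log2 fold change 1.39, adjusted p = 0.231), and Pgrmc1, a heme-binding membrane protein, at 1.30. As for Alas1, PCN 5 and 11 held more Cpox than PCN 27. On the diet Slc25a39, a mitochondrial carrier, had 0.54 and Cpox -0.31, with a median of 0.16 for the list. In HFD Vehicle against HFD the median was -0.076, with Fech, the ferrochelatase that puts iron into heme, at -0.40 and Cpox at 0.28.

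Of heme transport and breakdown, 12 of 15 listed genes were tested, with medians of 0.24 in HFD PCN against HFD Vehicle, -0.17 in HFD Vehicle against HFD and 0.054 in HFD against Chow. Blvrb, a biliverdin reductase, averaged 8.71 ± 0.455 CPM in HFD PCN and 16.6 ± 6.07 CPM in HFD Vehicle (-0.95, adjusted p = 0.231), and Flvcr2 had 0.86. In HFD Vehicle against HFD, Blvrb had 0.85 and Flvcr2 -1.11. On the diet Flvcr1, a heme exporter, had -0.46 and Abcg2, an efflux pump, -0.27.

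The hypoxia-inducible factor list had all 16 genes tested. Beside Epas1, the HIF-2α gene, it holds Hif1a and Hif3a. It leaves out Cybrd1, Slc11a2 and Slc40a1, so it does not measure HIF-2α alone. Its medians were 0.26 in HFD PCN against HFD Vehicle, -0.17 in HFD Vehicle against HFD and 0.34 in HFD against Chow. Ankrd37, a hypoxia target, averaged 6.59 ± 2.03 CPM in HFD PCN and 1.45 ± 0.0889 CPM in HFD Vehicle, a log2 fold change of 2.17 (SE 0.34, adjusted p = 0.107). Egln3, an oxygen-sensing hydroxylase, averaged 48.9 ± 7.77 CPM in HFD PCN and 24.7 ± 4.99 CPM in HFD Vehicle (0.99, adjusted p = 0.231). Ankrd37 had -1.39 in HFD Vehicle against HFD, where Adm, the adrenomedullin gene, had -1.34. On the diet Car9, a carbonic anhydrase, averaged 127 ± 45.5 CPM in HFD and 55.7 ± 13.2 CPM in Chow (1.19, adjusted p = 0.204), and Ankrd37 had 1.49 (adjusted p = 0.288).

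The iron sensing and hepcidin list had 16 of 20 genes tested and medians of -0.11 in HFD PCN against HFD Vehicle, 0.044 in HFD Vehicle against HFD and 0.019 in HFD against Chow. Hamp, the hepcidin gene of liver, had at most 1 count in a library. Smad6 and Id1, targets of bone morphogenetic protein signalling, had -1.06 and -0.91 under PCN, and Bmp6, the iron-responsive ligand of that pathway in liver, had 1.27 on the diet, where Aco1, the iron regulatory protein 1 gene, had -0.32. In HFD Vehicle against HFD, Acvr1 had 0.52 and Hfe -0.74. Of the other iron transport, reduction and storage list, the mitochondrial iron importer Slc25a28 had -0.70 under PCN and 0.50 on the diet. Slc25a37, the other mitochondrial importer, had -0.52 on the diet. Slc41a1, a magnesium transporter that also stands on that list and enters its median, had -1.07 under PCN. In HFD Vehicle against HFD, Slc25a37 had 0.86 and Slc39a8, a metal importer, 0.999. Medians of that list were -0.084 in HFD PCN against HFD Vehicle, 0.012 in HFD Vehicle against HFD and 0.18 in HFD against Chow.

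Iron-sulfur cluster assembly had 20 of 21 genes tested, with medians of -0.029 in HFD PCN against HFD Vehicle, -0.074 in HFD Vehicle against HFD and 0.23 in HFD against Chow. Fam96b, of the cytosolic targeting complex, had 0.85 under PCN. Ciapin1 and Glrx5 had 0.54 and 0.48 on the diet, and Isca2 and Hscb -0.48 and -0.57 in HFD Vehicle against HFD. NRF2 with its targets had medians of 0.45 in HFD PCN against HFD Vehicle, -0.31 in HFD Vehicle against HFD and 0.19 in HFD against Chow. Gsta4, a glutathione transferase, averaged 625 ± 254.5 CPM in HFD PCN and 127 ± 71.3 CPM in HFD Vehicle (2.31, adjusted p = 0.231), and Me1, malic enzyme, had 1.37. Gclc, of glutathione synthesis, had 1.37 on the diet and Abcc1, an efflux pump, 0.43, while in HFD Vehicle against HFD Nfe2l2 had 0.78 and Srxn1 -0.90. The heat shock list, given because Hmox1 was high in the same libraries, had medians of -2.42 in HFD PCN against HFD Vehicle, 2.45 in HFD Vehicle against HFD and -0.37 in HFD against Chow. Hspb1 had -3.76 and Hsp90aa1 -2.85 under PCN, Hspe1 and Hspd1 2.72 and 2.17 in HFD Vehicle against HFD, and Hsf1 and Bag3 0.45 and -0.43 on the diet.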

How the data were processed

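The authors deposited raw read counts per gene in 2 tables of 6 libraries, HFD with Chow and HFD PCN with HFD Vehicle, each beside their own log2 fold changes and p-values. The tools were HISAT2, HTSeq and DESeq2 and the build GRCm38 (mm10), per the submitters' processing notes. Versions, strand setting, read filters and annotation release are not given in the sources used here, so reads of overlapping genes may be shared. The authors' values are printed only where their deposited table is named. The 10 genes, the lists of related genes and the naming rule were chosen with earlier results of these data known. All 10 genes were named with every library. Of each list, genes called were to be named, or, with none called, the 2 with the smallest unadjusted p outside the 10. A gene that this rule names is not reported here. For each comparison its 6 libraries were fitted in edgeR 4.0.16 and R 4.3.3 (filterByExpr, TMM, robust quasi-likelihood F-test, Benjamini-Hochberg over all genes tested, called under 0.05). SEs are approximate, the log2 fold change over the root of F. Levels are CPM after TMM over all 12 libraries, with the scale set on the 16593 genes kept by the low-count filter. Those were kept from the 26121 genes in both tables. Means ± SD of genes named from the lists are instead CPM after TMM over the 6 libraries of their comparison. Lengths are those of the longest principal transcript in GENCODE M21. Alternatives were other size factors, no low-count filter, DESeq2 1.42.0, all 12 libraries in 1 fit, no mitochondrial and ribosomal RNA, each library left out, other references for PCN, and a Pdx1 term. Total counts per library set the counting error. Hmox1 and Cybrd1 had the fewest counts, 2 to 97 and 22 to 1279 per library. No library was left out of the tests reported first. Fdx2 and Ciao2b stand in the tables as Fdx1l and Fam96b, by RefSeq synonym. Promoter and protein sequences were not used here.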

Additional observations from a re-analysis of the deposited data

How the results depend on the processing

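With 3 libraries a group, 1 library could decide a call. Of 380 alternative values for the fold changes of the 10 genes, 342 kept their direction and side of the threshold, 9 passed it and 29 turned sign. In HFD against Chow the count of all genes called, 10, was 351 with no low-count filter, 134 by DESeq2, 2 in 1 fit of 12 libraries, 0 with a Pdx1 term and 4 to 63 with 1 library left out (63 without HFD 38). The count among the 10 genes was 1 with no filter (Ftl1) and 0 to 1 with 1 library left out. In HFD PCN against HFD Vehicle the count of all genes called, 10, was 843 with no filter, 339 by DESeq2, 34 in 1 fit, 4 without mitochondrial and ribosomal RNA, 2 without HFD Vehicle 23 and 50, 52 against uninjected HFD and 0 to 3697 with 1 library left out (0 without HFD PCN 11 or HFD Vehicle 50, 3697 without HFD Vehicle 55). The count among the 10 genes was 2 with no filter and 0 to 5 with 1 library left out. In HFD Vehicle against HFD the count of all genes called, 0, was 1 with no filter, 32 by DESeq2, 1 in 1 fit and 0 to 260 with 1 library left out (260 without HFD Vehicle 55). The cause was not tested.

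Signs turned as follows. With the Pdx1 term, which was added after seeing the data, Cybrd1 stood at -0.74, Slc40a1 at -0.053 and Ftl1 at -0.036 in HFD PCN against HFD Vehicle, Heph at -0.089 in HFD against Chow, and Slc11a2 at 0.42, Slc40a1 at 0.23, Tfrc at -0.11 and Alas1 at 0.058 in HFD Vehicle against HFD. Without HFD Vehicle 23 and 50, Cybrd1 stood at -0.51, Ftl1 at -0.070 and Hmox1 at 1.25, and against uninjected HFD Slc40a1 stood at -0.063, Ftl1 at -0.39 and Slc46a1 at -0.17. With 1 library left out, the range in HFD against Chow was -0.19 to 0.20 for Heph, -0.18 to 0.30 for Tfrc and -1.07 to 0.22 for Hmox1 (0.22 without Chow 17). It was -0.30 to 0.31 for Ftl1 in HFD PCN against HFD Vehicle. In HFD Vehicle against HFD it was -2.74 to 1.64 for Cybrd1 (-2.74 without HFD Vehicle 55), -0.094 to 0.35 for Tfrc and -0.25 to 0.060 for Alas1. Hmox1, at 2 to 97 counts a library, had the fewest counts, so depth limits it most. No paired analysis was possible because no library number occurs in more than 1 group.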

Other observations

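Some other genes of metal handling had the same low libraries as Slc40a1. Ncoa4, the receptor that takes ferritin to the lysosome for release of its iron, stood at 610, 785 and 462 CPM in HFD PCN 5, 11 and 27, against 79.9, 261.5 and 357 CPM in HFD Vehicle 23, 50 and 55. It stood at 294, 692 and 228 CPM in HFD 4, 30 and 38, against 368, 362 and 160 CPM in Chow 8, 17 and 19. Slc30a10, the manganese exporter, stood at 174, 326 and 144 CPM in HFD PCN 5, 11 and 27, against 21.3, 107 and 115 CPM in HFD Vehicle 23, 50 and 55. It stood at 186, 310 and 58.1 CPM in HFD 4, 30 and 38, against 188, 160 and 67.4 CPM in Chow 8, 17 and 19. For both genes, chosen after their values were seen, Chow 19, HFD 38, HFD Vehicle 23 and HFD Vehicle 50 were the 4 lowest libraries. Their PCN libraries lay above the Vehicle ones, and 19.3% of all genes had groups that did not overlap in that comparison. Ireb2, the gene of iron regulatory protein 2, spanned 78.7 CPM in HFD Vehicle 23 to 381 CPM in HFD PCN 11. Epas1, the HIF-2α gene, spanned 167 to 290 CPM. Ireb2, Epas1 and Aco1 did not have those same 4 lowest libraries.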
